A study of Mus musculus with 38 samples.

Results

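The Notch receptors Notch1, Notch2, Notch3 and Notch4, the ligands Dll1, Dll4, Jag1 and Jag2, and the target genes Hes1 and Hey1 were taken by symbol from the deposited table, and all 10 were found among its 13260 genes. C57Bl/KaLwRijHsd mice, 8 to 10 weeks old, received PBS (healthy) or 5TGM1-GFP myeloma cells (myeloma-bearing) into a vein and were culled on day 23, with no further treatment in either arm. The myeloma cells are thus a transplanted, fluorescent mouse line and not a tumour that arose in these animals. From the lining of crushed hindlimb bones, endothelial cells (EC, CD45- Ter119- CD31+), stromal progenitors (SP, Sca1+ ALCAM-) and osteoprogenitors (OP, ALCAM+ Sca1-) were sorted from both arms, and GFP+ myeloma cells (MM) were sorted from the bone lining and from the central marrow of myeloma-bearing mice. Each of the 38 polyA RNA-Seq libraries was made from 100 sorted cells, with 5 libraries in each of the 8 groups except the osteoprogenitors, which had 4 in each arm. A library is named below by its group and its replicate letter, and the replicates came from different mice.

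Notch signalling passes between cells in contact. A ligand of the Delta-like or Jagged families on one cell pulls on a receptor of its neighbour, ADAM10 and then gamma-secretase cut the receptor, and the freed intracellular domain enters the nucleus, where it joins RBPJ and a Mastermind protein and switches on genes such as Hes1 and Hey1, which encode transcriptional repressors. In vessels Dll4 and Notch1 are known for tip cell selection and arterial identity, in bone the pathway is known for holding mesenchymal progenitors back from differentiation, and NOTCH activity has been described in myeloma cells and their stroma.

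In the GENCODE annotation of GRCm38 the members lie on 5 chromosomes. Notch1 (2:26457903-26516663, minus strand), Dll4 (2:119325784-119335962, plus strand) and Jag1 (2:137081456-137116644, minus strand) are on chromosome 2. Hey1 (3:8663359-8667256, minus strand) and Notch2 (3:98013527-98150361, plus strand) are on chromosome 3. Jag2 (12:112907819-112929776, minus strand) and Hes1 (16:30064384-30067796, plus strand) are alone on theirs, and Dll1 (17:15367354-15376872, minus strand), Notch3 (17:32120820-32166852, minus strand) and Notch4 (17:34564268-34588503, plus strand) share chromosome 17. Each position is that of the whole gene, exons and introns together. The annotation puts an antisense transcript, Gm14207, over Dll4, and the counting was run with default settings, which ignore strand. Gm14207 had 0 to 1475 reads in the 10 endothelial libraries and at most 1 read in the other 28, so reads of the pair could not be told apart by strand.

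Promoter windows of 300 bases (250 before and 50 after the start, RefSeq, GRCm38.p6) were at hand for 8 members, 9 windows in all, since Dll1 had a pair of them. The windows of Dll4 and Notch4 are shown because these are the ligand and the receptor with the fewest reads outside the endothelial libraries. Capitals mark GGGCGG, the core of an Sp1-type site, in the Dll4 window (chr2:119325534-119325833, plus strand), and AGGAAG, which holds the GGAA core of ETS factors, in the Notch4 window (chr17:34564045-34564344, plus strand), each on either strand (CCGCCC and CTTCCT on the other).
Dll4: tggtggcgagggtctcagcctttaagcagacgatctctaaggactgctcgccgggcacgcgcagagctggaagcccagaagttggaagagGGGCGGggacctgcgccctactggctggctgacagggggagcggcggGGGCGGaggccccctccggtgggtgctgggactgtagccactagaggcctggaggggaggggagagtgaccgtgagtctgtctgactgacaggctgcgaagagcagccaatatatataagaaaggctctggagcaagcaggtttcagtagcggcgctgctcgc
Notch4: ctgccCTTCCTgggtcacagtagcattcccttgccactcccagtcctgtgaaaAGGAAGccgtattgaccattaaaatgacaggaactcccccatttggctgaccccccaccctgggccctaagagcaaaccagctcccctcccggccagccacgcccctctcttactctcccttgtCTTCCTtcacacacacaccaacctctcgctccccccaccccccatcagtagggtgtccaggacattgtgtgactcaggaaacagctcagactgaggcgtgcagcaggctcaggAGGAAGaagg
The Dll4 window held GGGCGG 2 times, and the Notch4 window held AGGAAG 4 times and no GGGCGG. These letter strings were picked after the windows had been read. GGGCGG was in 5 of the 9 member windows and in 35.7% of all 32851 windows, and AGGAAG in 2 of 9 and in 35.4%. TGGGAA, the core that RBPJ reads, was in none of the 9 windows and in 25.6% of all. CGGAAG was in 1 of 9 against 16.9%, and TATAAA in none against 13.6%. A match is a description of the letters only.

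The libraries carried the markers of their gates. All 8 endothelial markers exceeded 1 RPKM (a read number scaled to gene length and library size) in every endothelial library, and their sum was 7407 to 22496 RPKM there against 2.71 to 206 RPKM in the other 28 libraries. All 10 osteoprogenitor markers exceeded 1 RPKM in every osteoprogenitor library, and all 9 measured myeloma markers did so in every myeloma library. Of the 6 stromal progenitor markers, 5 did so in every healthy and 6 in every myeloma-bearing stromal progenitor library. As many did so in every osteoprogenitor library of each arm, so this count does not mark stromal progenitors. The sum of these markers in stromal progenitors, 1105 to 3112 RPKM, was mostly below the 2724 to 8974 RPKM of endothelial cells, which share some of them. It was above the 148 to 545 RPKM of osteoprogenitors. Total reads, recovered from the RPKM steps, ran from 9735031 to 34883291 per library. The neutrophil marker sum was 7233 RPKM in healthy SP library L and 8061 RPKM in myeloma-bearing SP library E, against at most 179.8 RPKM in the other stromal progenitor libraries.

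**Figure D1:**
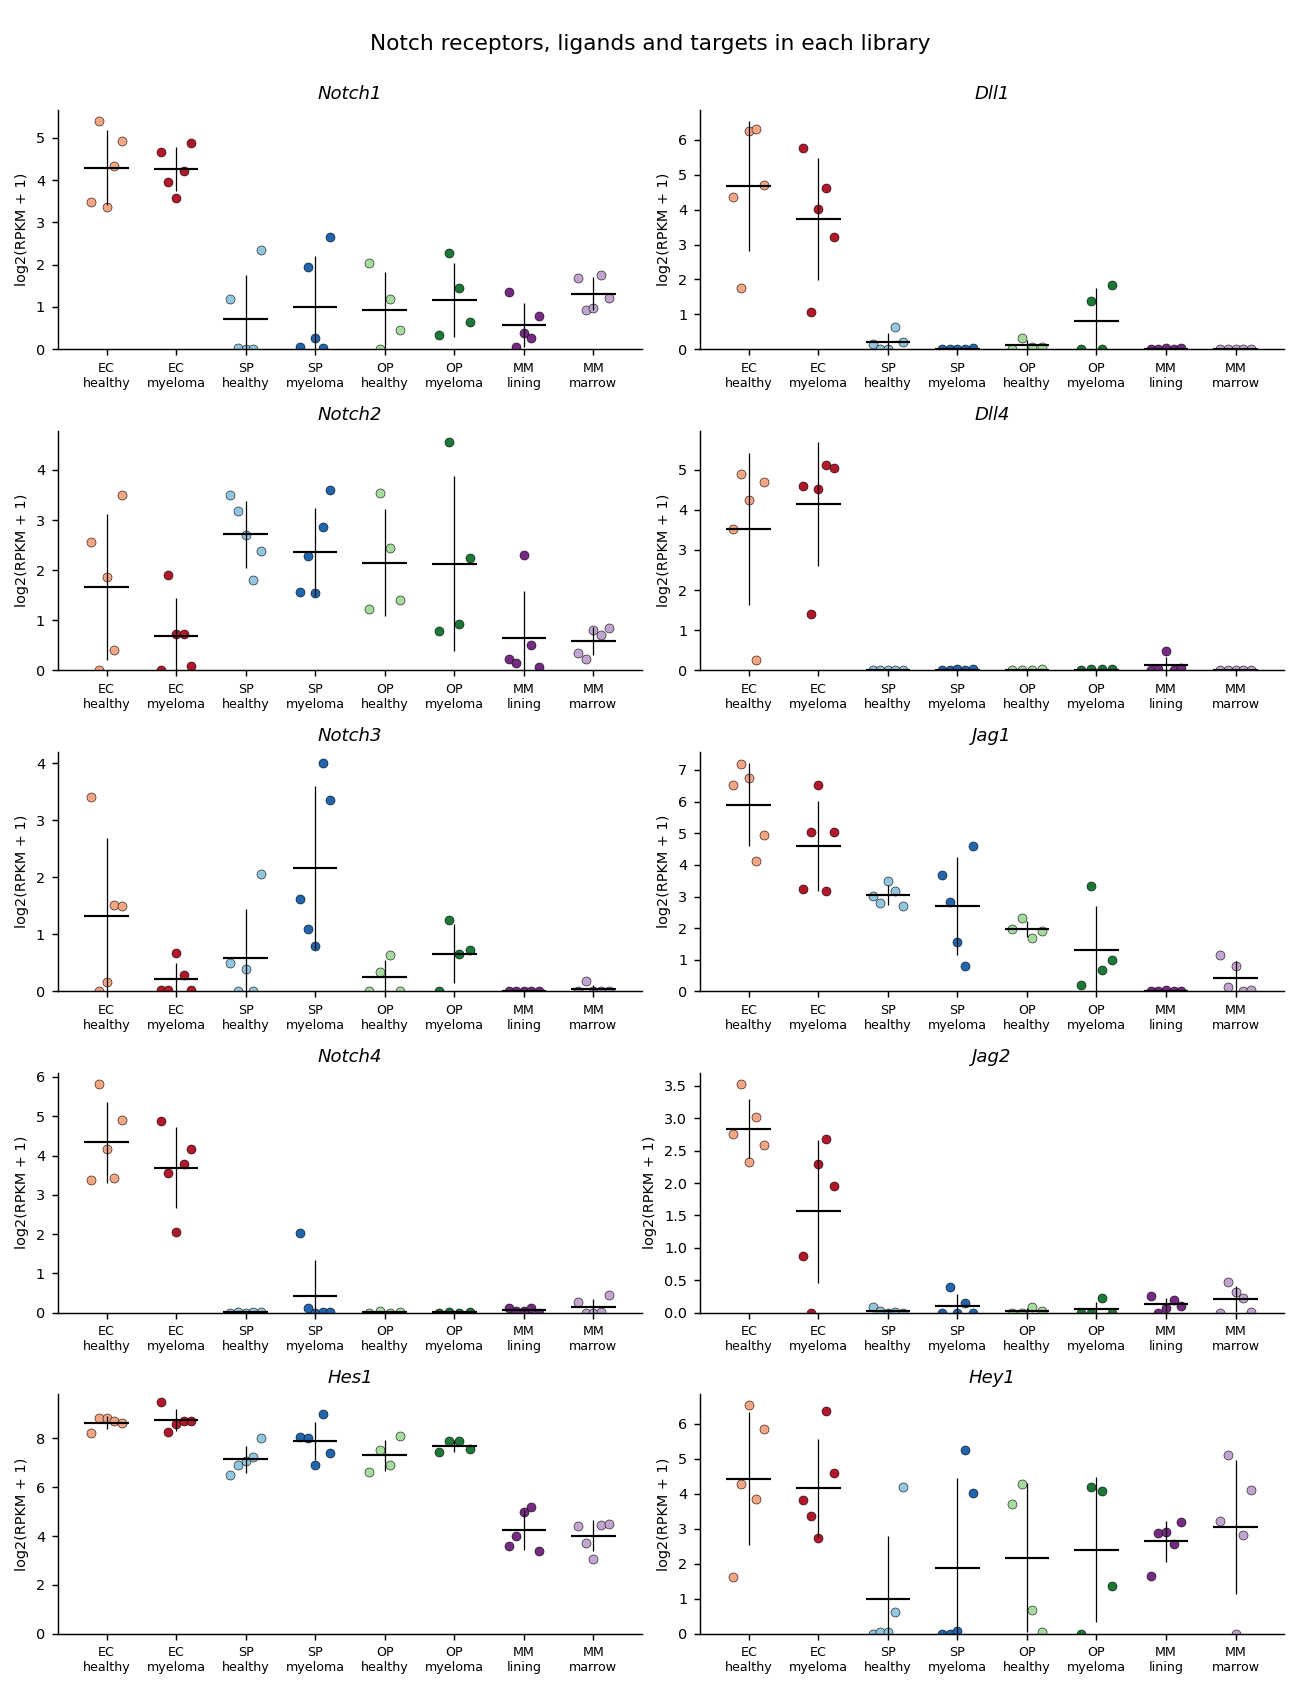
Each panel plots 1 gene, with log2(RPKM + 1) on the vertical axis and the 8 groups on the horizontal axis; each point is a library, the horizontal bar the mean and the vertical bar 1 SD, cut off at 0. All 10 endothelial libraries lie above every other library for Notch1 and Notch4, Dll4 is near 0 outside them, and Hes1 is lowest in the 10 myeloma libraries.

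Among the receptors, Notch1 and Notch4 were endothelial. Notch1, the broadly used receptor of vessel and lymphoid development, had 10.1, 41.1, 9.37, 19 and 29.2 RPKM in healthy endothelial libraries C, L, M, N and O and 24.3, 14.4, 11, 17.5 and 28.6 RPKM in myeloma-bearing libraries D, E, G, I and J. The means were 21.7 ± 13.5 and 19.2 ± 7.18 RPKM (SD, n = 5 each), and the groups overlapped. Every endothelial library lay above the highest of the 18 mesenchymal libraries, 5.26 RPKM. Stromal progenitors had 1.29, 0.0185, 0.00489, 0.00965 and 4.06 RPKM in healthy and 0.0385, 2.86, 0.202, 0.0211 and 5.26 RPKM in myeloma-bearing mice, and osteoprogenitors 3.14, 0.00834, 1.27 and 0.361 RPKM, then 0.26, 3.85, 1.72 and 0.559 RPKM. Mesenchymal Notch1 was thus uneven, from 1 read in the lowest to 884 in the highest, and only 8 of the 18 exceeded 1 RPKM. In order of the group means the endothelial pair was followed by 6 groups at 0.566 to 1.68 RPKM, whose neighbours all overlapped.

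Notch4, a receptor known from endothelium, was the receptor with the fewest reads in the mesenchyme. It had 9.46, 55.2, 17, 9.77 and 29.1 RPKM in the healthy endothelial libraries (mean 24.1 ± 19.1, SD, n = 5) and 28.2, 10.8, 3.17, 12.8 and 17 RPKM in the myeloma-bearing ones (mean 14.4 ± 9.2, SD, n = 5). Of the 18 mesenchymal libraries, 16 had at most 2 Notch4 reads and 7 had none. The exceptions were myeloma-bearing stromal progenitor libraries D, with 280 reads (3.1 RPKM, just under the lowest endothelial library), and E, with 14 reads. Library D also had an endothelial marker sum of 183 RPKM, while library J of the same group had 206 RPKM and 1 Notch4 read, and library G 165 RPKM and no read. The part of endothelial RNA in the value of library D was not tested. In bulk libraries like these, fewer cells of a type and less RNA per cell cannot be told apart.

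Notch2, a close relative of Notch1, exceeded 1 RPKM in 16 of 18 mesenchymal and 4 of 10 endothelial libraries. That difference was not called below, except in 3 of 18 alternatives against stromal progenitors of myeloma-bearing mice. It had 10.3, 8.02, 5.49, 2.51 and 4.2 RPKM in the healthy stromal progenitors (mean 6.11 ± 3.1, SD, n = 5) and 1.94, 3.87, 1.9, 6.26 and 11.1 RPKM in the myeloma-bearing ones (mean 5.02 ± 3.86, SD, n = 5). The osteoprogenitors had 1.33, 10.6, 4.43 and 1.63 RPKM in healthy mice and 0.733, 22.5, 0.891 and 3.7 RPKM in myeloma-bearing mice. Reads were found in all 18 mesenchymal libraries, at least 78 in each. Endothelial cells had 4.88, 0, 2.64, 0.318 and 10.3 RPKM in healthy and 0, 2.72, 0.649, 0.645 and 0.0579 RPKM in myeloma-bearing mice, a median of 0.647 RPKM with 2 libraries at 0. Neighbouring groups overlapped throughout the order of the means, from 6.94 RPKM in myeloma-bearing osteoprogenitors to 0.522 RPKM in central marrow myeloma cells. The highest of these means rested on library G at 22.5 RPKM, and the rest of that group had at most 3.7 RPKM.

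Notch3, known from pericytes and vascular smooth muscle, was uneven between libraries. The healthy stromal progenitors had 0.415, 0, 0.321, 0 and 3.17 RPKM and the myeloma-bearing ones 2.06, 1.14, 0.73, 15 and 9.25 RPKM. No library of the second group was without reads, but the groups overlapped, because healthy library O exceeded 3 of the 5. Healthy endothelial library C had 9.68 RPKM, against 0 to 1.86 RPKM in the other 4. The pericyte and smooth muscle marker sum was 21.5 to 346 RPKM in healthy and 68.8 to 589.8 RPKM in myeloma-bearing stromal progenitors and 312 to 1032 RPKM in endothelial cells, with none of the 7 measured markers at 0 throughout these groups. The part of such cells in the Notch3 values was not tested. In myeloma-bearing stromal progenitor libraries D, E, G, I and J, the order of the Notch3 values above, the sum was 197, 68.8, 589.8, 154 and 264 RPKM.

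**Figure D2:**
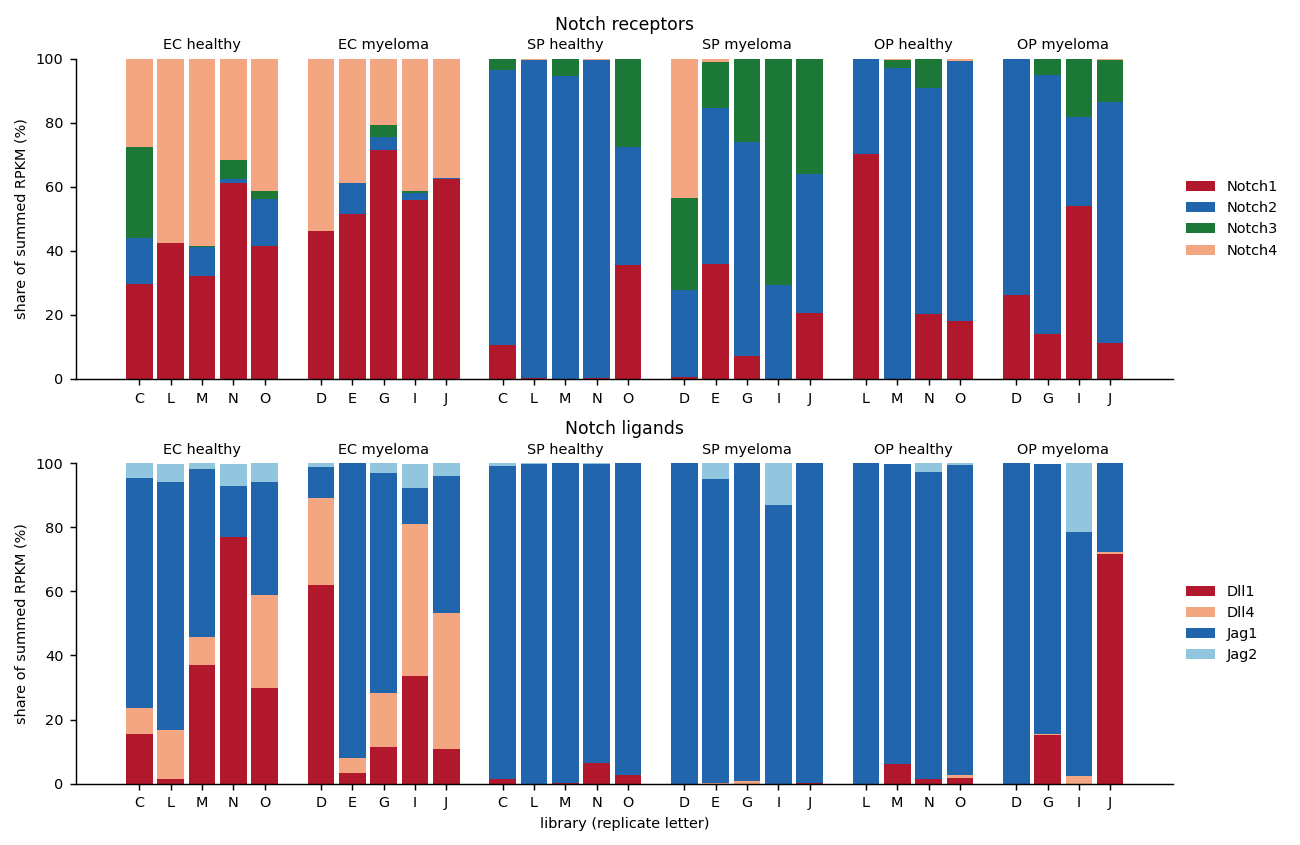
Stacked bars give the share of each receptor (upper panel) and each ligand (lower panel) in the summed RPKM of its family, in percent on the vertical axis, for each endothelial (EC), stromal progenitor (SP) and osteoprogenitor (OP) library. Notch1 and Notch4 fill most of the endothelial receptor bars, Notch2 leads in all 5 healthy SP libraries, and Jag1 is nearly the whole ligand bar in most mesenchymal libraries.

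Set against each other per length, different receptors led in endothelial and in mesenchymal libraries. Notch1 made up a median of 41.4% of the receptor sum in healthy and 56% in myeloma-bearing endothelial cells, and Notch4 41.3% and 38.7%. Notch2 had the largest share in 5 of 5 healthy stromal progenitor libraries, with a median of 94.4%. In myeloma-bearing stromal progenitors it led in 3 of 5, with a median of 43.4%, while the Notch3 median was 28.9% against 3.45% in healthy mice. Those shares overlapped between the arms, with Notch3 at 0% to 27.7% in healthy and 14.3% to 70.4% in myeloma-bearing mice. In osteoprogenitors Notch2 led in 3 of 4 libraries of each arm and Notch1 in the remaining 1. The receptor sum itself had medians of 34.1 and 31.2 RPKM in endothelial cells, 8.05 and 7.95 RPKM in stromal progenitors, 5.37 and 4.06 RPKM in osteoprogenitors (healthy, then myeloma-bearing) and 0.768 and 2.46 RPKM in myeloma cells (bone lining, then central marrow).

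All 4 ligands were found in endothelial cells, and in the mesenchyme Jag1 exceeded 1 RPKM in 14 of 18 libraries, Dll1 in 2, and Dll4 and Jag2 in none. Jag1, the Jagged ligand of vessels and of osteoblast lineage cells, had 91.1, 144, 106, 16.3 and 30 RPKM in healthy (mean 77.4 ± 53.3, SD, n = 5) and 8.36, 31.9, 90.3, 7.96 and 32.2 RPKM in myeloma-bearing endothelial cells (mean 34.2 ± 33.6, SD, n = 5). In healthy stromal progenitors it kept to a narrow band of 7.1, 5.99, 10.3, 8.08 and 5.43 RPKM, and in healthy osteoprogenitors of 2.92, 4.01, 2.21 and 2.76 RPKM. These bands did not overlap. In myeloma-bearing mice both widened, to 11.9, 6.11, 1.98, 0.73 and 23.2 RPKM in stromal progenitors and to 0.162, 9.01, 0.606 and 0.98 RPKM in osteoprogenitors, and they overlapped. The SD over libraries was 1.92 RPKM in healthy and 9.16 RPKM in myeloma-bearing stromal progenitors, and 0.751 and 4.23 RPKM in osteoprogenitors. The wider spread in osteoprogenitors rested on library G at 9.01 RPKM, since the rest of that group lay between 0.162 and 0.98 RPKM. The difference in spread was not tested. Jag1 made up at least 93.4% of the ligand sum in each healthy mesenchymal library.

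Dll4, the tip cell ligand, was read almost only in endothelial libraries. It had 10.5, 28.5, 17.9, 0.205 and 24.7 RPKM in healthy (mean 16.4 ± 11.3, SD, n = 5) and 23.2, 1.66, 21.9, 33.9 and 32 RPKM in myeloma-bearing endothelial cells (mean 22.5 ± 12.8, SD, n = 5). Healthy library N, at 15 reads, and myeloma-bearing library E, at 1.66 RPKM, stood far below the rest, although their endothelial marker sums of 15320 and 14732 RPKM were within the range of the others. The 18 mesenchymal libraries had 0 to 2 Dll4 reads each, and the 5 healthy stromal progenitor libraries had none. Against a floor of 3 reads per library there, the healthy endothelial mean was at least 382-fold higher.

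Dll1 and Jag2 were also highest in endothelial cells by group mean, but for each some endothelial library lay below libraries of other cells. Dll1, the Delta-like ligand best known from somites and marginal zone B cells, had 19.5, 2.36, 74.9, 78.8 and 25.3 RPKM in healthy and 53, 1.09, 15.1, 23.8 and 8.23 RPKM in myeloma-bearing endothelial cells. Its largest share of the ligand sum, 76.9%, was in healthy library N, the library with the lowest Dll4. Outside endothelium only myeloma-bearing osteoprogenitor libraries G and J exceeded 1 RPKM, at 1.62 and 2.55 RPKM. Both lay above myeloma-bearing endothelial library E, and J also above healthy endothelial library L. Jag2 had the lowest mean of the ligands in both endothelial groups, at 5.73, 10.5, 3.99, 7.13 and 5.03 RPKM in healthy and 0.832, 0, 3.91, 5.44 and 2.89 RPKM in myeloma-bearing mice, and no other library exceeded 0.392 RPKM. Jag2 had no read in myeloma-bearing library E, the library with the lowest Dll1 and Dll4 of its group.

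The targets differed in breadth. Hes1 had over 7 RPKM in every library and was the highest of the 10 genes in all 8 group means. Healthy endothelial cells had 297, 461, 460.3, 413 and 392 RPKM (mean 405 ± 67.3, SD, n = 5), healthy stromal progenitors 90.4, 121, 133, 150.3 and 258 RPKM (mean 151 ± 63.9, SD, n = 5) and healthy osteoprogenitors 98.9, 182, 121 and 276 RPKM (mean 169 ± 79.3, SD, n = 4), with no overlap between endothelial cells and either of the others. In myeloma-bearing mice the endothelial values of 721, 302, 386, 417 and 413 RPKM overlapped with the 269, 258, 120.3, 508 and 170.4 RPKM of stromal progenitors, but not with the 171, 235, 239.8 and 187 RPKM of osteoprogenitors. Hes1 is also known to answer to signals other than Notch, so its level is no measure of Notch activity by itself.

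Hey1 was either present or nearly absent. It had 2.1, 18.5, 90.5, 13.4 and 56.7 RPKM in healthy and 13.1, 9.22, 5.63, 80.8 and 23.2 RPKM in myeloma-bearing endothelial cells. In stromal progenitors it had 0, 0.0266, 0.0421, 0.54 and 17.1 RPKM in healthy and 0, 0, 0.0542, 37.2 and 15.3 RPKM in myeloma-bearing mice, that is 598 reads or more in 3 libraries and at most 26 in the other 7. Osteoprogenitors had 12, 18.5, 0.588 and 0.0247 RPKM, then 0, 17.1, 15.7 and 1.59 RPKM. The neighbours in the order of the means overlapped throughout, from 36.2 RPKM in healthy endothelial cells to 3.54 RPKM in healthy stromal progenitors.

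To ask where the niche cell types differ, limma was run on log2(RPKM + 1) over every gene that exceeded 1 RPKM in 4 or more libraries of the pair of groups, and a gene was called at a Benjamini-Hochberg adjusted p below 0.1 over those genes with a log2 difference above 1 in size. Between healthy endothelial cells and stromal progenitors 8 of the 10 members were called, all higher in endothelial cells, where 17.3% of the 8457 genes tested were called. The receptors were Notch1 (log2 difference 3.58, SE 0.84, adjusted p = 0.0104) and Notch4 (4.33, SE 0.77, adjusted p = 0.00144). The ligands were Dll1 (4.48, SE 0.94, adjusted p = 0.0051), Dll4 (3.52, SE 0.89, adjusted p = 0.016), Jag1 (2.86, SE 0.76, adjusted p = 0.0207) and Jag2 (2.82, SE 0.59, adjusted p = 0.00478). The targets were Hes1 (1.49, SE 0.41, adjusted p = 0.026) and Hey1 (3.45, SE 1.13, adjusted p = 0.0592). Notch2 (-1.05, 95% interval -2.92 to 0.82) and Notch3 (0.72, 95% interval -0.82 to 2.27) were not called. Notch4, Dll1, Dll4 and Jag2 passed the filter only through the endothelial libraries, so that a difference was built into their testing, and their fitted sizes depend on the added 1 RPKM. Hey1 lost its call when any 1 of healthy EC libraries M or O or healthy SP libraries C, L, M or N was left out, which left 6 or 7 members called, and also without the filter. Jag1 lost its call with voom and Hes1 with no trend. Dll4 exceeded 1 RPKM in exactly 4 libraries and was no longer tested without EC library C, L, M or O.

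Against healthy osteoprogenitors 7 members were called, all higher in endothelial cells, beside 16.5% of 8258 genes. They were Notch1 (3.37, SE 0.88), Notch4 (4.33, SE 0.84), Dll1 (4.57, SE 1.03), Dll4 (3.51, SE 0.98), Jag1 (3.93, SE 0.85), Jag2 (2.82, SE 0.62) and Hes1 (1.35, SE 0.43), with adjusted p from 0.00385 (Notch4) to 0.062 (Hes1). Notch4, Dll1, Dll4 and Jag2, 4 of the 7, again passed the filter only through endothelial libraries, so that their difference was built into the testing. Hey1 (2.25, 95% interval -0.44 to 4.95, adjusted p = 0.311) and Notch2 (-0.49, 95% interval -2.49 to 1.52) were not called, and Notch3 was too low to be tested. Leaving out 1 library left 4 to 6 members called, with 4 without OP library M or N, where Notch1, Dll4 and Hes1 dropped out. Notch1 was also lost without OP library O. Dll4 was lost in 8 of the 9 such fits, without any 1 of the 4 OP libraries and, because it was then no longer tested, without EC library C, L, M or O. Hes1 kept its call in 9 of 17 alternatives and also lost it without EC library M or N or OP library L, with no trend, with quantile normalisation and with the replicate block, and voom lost Jag1. Without OP library M or N 630 and 585 genes were called in all, against 1361 with every library. Both comparisons use the same 5 healthy endothelial libraries.

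Between the mesenchymal cell types no member was called. In healthy mice 3.58% of 8707 genes were called and 0 of the 4 members tested, and in myeloma-bearing mice 3.35% of 8793 genes and 0 of 6. None of these 10 member tests had an unadjusted p below 0.05, and voom on the recovered reads called none either. Jag1 was -1.07 (95% interval -2.69 to 0.56) in osteoprogenitors relative to stromal progenitors of healthy mice and -1.39 (95% interval -3.56 to 0.78) in myeloma-bearing mice. Notch3 in myeloma-bearing mice was -1.51 (95% interval -3.30 to 0.27).

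**Figure D3:**
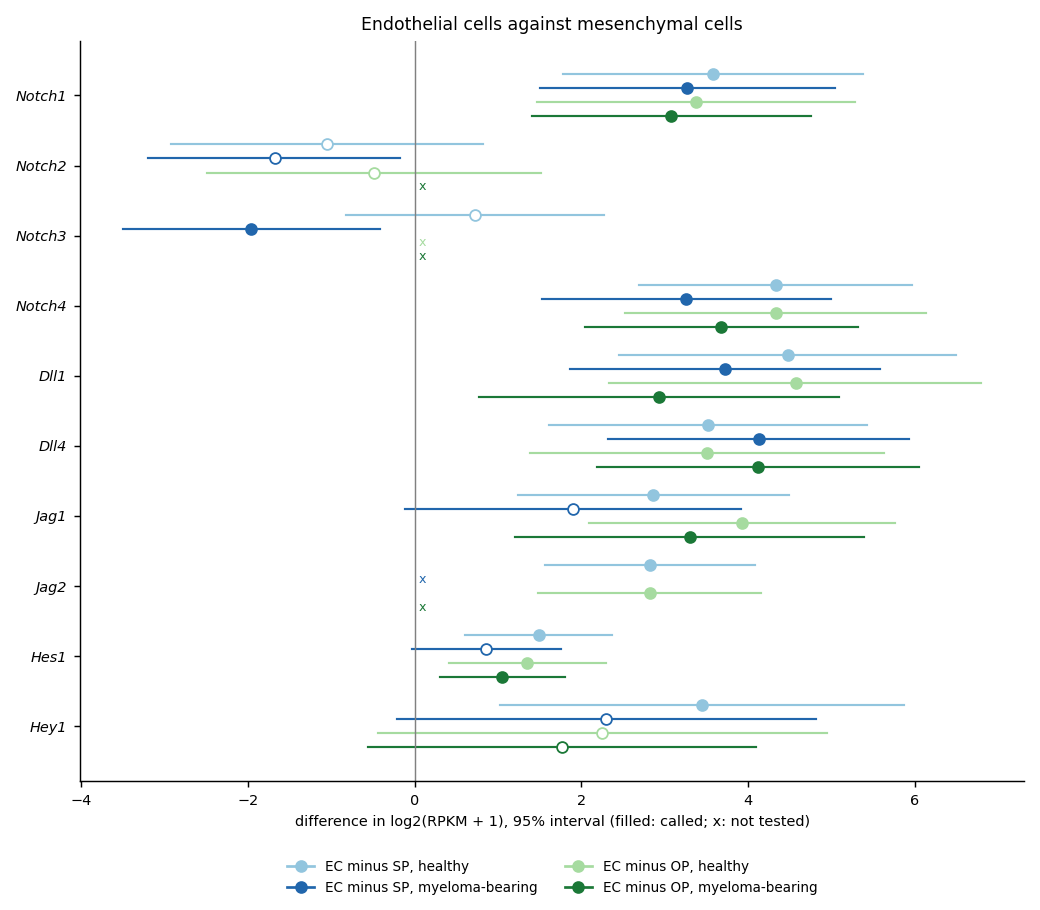
Points give the difference in log2(RPKM + 1), endothelial cells (EC) minus stromal progenitors (SP) or osteoprogenitors (OP), with the limma 95% interval, for each gene and each arm; filled points were called and x marks a gene too low to be tested. Notch1, Notch4, Dll1 and Dll4 lie right of 0 with filled points in all 4 comparisons, though Dll4 passed the filter through endothelial cells only in each of the 4, and Notch4 and Dll1 in 3, and Notch3 lies left of 0 at -1.96 against stromal progenitors of myeloma-bearing mice.

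The same cell types were compared in myeloma-bearing mice. Between endothelial cells and stromal progenitors 5 members were called, beside 16.1% of 8749 genes. Notch1 (3.27, SE 0.83, adjusted p = 0.0166), Notch4 (3.26, SE 0.81, adjusted p = 0.0148), Dll1 (3.72, SE 0.87, adjusted p = 0.00996) and Dll4 (4.13, SE 0.85, adjusted p = 0.00388) were higher in endothelial cells, and Notch3 was lower (-1.96, SE 0.72, adjusted p = 0.0976). Dll1 and Dll4 passed the filter only through endothelial cells and Notch3 only through stromal progenitors, so that their differences were built into the testing. Notch3 kept its call in 5 of the 14 alternatives that tested it, with adjusted p from 0.00711 to 0.241. It lost the call without any 1 of the 5 EC libraries, without the filter, with no trend, with quantile normalisation and with the replicate block, and it was too low to be tested without SP library D, E, I or J. Leaving out 1 library left 4 to 6 members called. Jag1 (1.90, 95% interval -0.11 to 3.92), Hes1 (0.86, 95% interval -0.03 to 1.76) and Hey1 (2.30, 95% interval -0.21 to 4.81) were not called here, and Notch2 (-1.68, 95% interval -3.20 to -0.17) had an unadjusted p of 0.032 and an adjusted p of 0.16. In fits of all 38 libraries 8 members were called, Jag2 and Notch2 among them.

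Against osteoprogenitors of myeloma-bearing mice 6 members were called, all higher in endothelial cells, beside 17.7% of 8667 genes. Notch1 (3.08, SE 0.77), Notch4 (3.68, SE 0.76), Dll1 (2.93, SE 1.00), Dll4 (4.12, SE 0.89), Jag1 (3.30, SE 0.97) and Hes1 (1.05, SE 0.35) had adjusted p from 0.00479 (Notch4) to 0.0733 (Dll1). On those libraries voom, run on recovered reads, called 4 of them and not Dll1 and Jag1. Without OP library D, I or J 3 were called, namely Notch1, Notch4 and Dll4. Hes1 was called in 9 of 17 alternatives and was also lost without EC library D or OP library G, with no trend, with quantile normalisation and with all 38 libraries in the fit. Dll1 was called in 8 of 17 and was also lost without the filter and without EC library D, G or I or OP library G. Notch4 and Dll4 passed the filter only through endothelial cells, so that their difference was built into the testing.

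The other genes of the pathway came from lists of 51 genes, of which 44 were in the table. Between healthy endothelial cells and stromal progenitors 6 of 35 tested were called, a share of 17.1% close to the 17.3% of all genes, 5 higher and 1 lower in endothelial cells. The 4 largest were Egfl7, a secreted endothelial protein that can bind Notch (log2 difference 8.96, SE 0.61, adjusted p = 1.92e-07), Mfng, a fringe that adds sugar to the receptors (4.22, SE 0.89), Nrarp, a target that feeds back on the pathway (4.19, SE 0.94), and Neurl1b, a ubiquitin ligase for ligands (3.10, SE 0.91). All 4 passed the filter only through endothelial cells, so that their direction was fixed before the test. Rbpj, the DNA-binding partner of the receptors, was lower (-3.10, SE 1.05, adjusted p = 0.0686), with means of 5.58 ± 7.56 RPKM in endothelial cells and 29.8 ± 14.5 RPKM in stromal progenitors (SD, n = 5 each). Adam10, the first receptor protease, was higher (2.57, SE 0.67, adjusted p = 0.0194).

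Nrarp, like Dll4 and Notch4, was highest in endothelial cells by group mean, but its libraries overlapped. The Nrarp means were 28.7 ± 25.3 and 16.7 ± 7.62 RPKM in endothelial cells (SD, n = 5 each) and at most 0.737 RPKM in the other groups. Healthy endothelial library L had 0.84 RPKM, below the 3.67 RPKM of myeloma-bearing stromal progenitor library G. Against osteoprogenitors of healthy mice 4 of 32 (12.5%, against 16.5% of all genes) were called, all higher in endothelial cells, namely Egfl7 (8.97, SE 0.61), Mfng (4.21, SE 0.98), Nrarp (4.00, SE 1.05) and Adam10 (2.79, SE 0.71), of which the first 3 passed the filter only through endothelial cells. In myeloma-bearing mice 5 of 31 (16.1%, as over all genes) were called against stromal progenitors, led by Egfl7 (7.33, SE 0.76), Numb, which antagonises Notch (4.50, SE 0.79), Nrarp (3.57, SE 0.80) and Rfng, another fringe (-2.49, SE 0.88). Against osteoprogenitors 6 of 30 (20%, against 17.7% of all genes) were called, led by Egfl7 (8.53, SE 0.54), Nrarp (3.92, SE 0.73), Maml2, a Mastermind coactivator (3.21, SE 1.08), and Rfng (-3.11, SE 0.85), with Egfl7 and Nrarp again let through by endothelial cells alone. Mfng had means of 32.5 ± 41.5 and 20.5 ± 22 RPKM in endothelial cells (SD, n = 5 each) and at most 0.0107 RPKM in the mesenchymal groups. Between endothelial and mesenchymal cells Mfng was called only in healthy mice, where the filter fixed its direction. Rfng was called only in myeloma-bearing mice, so no fit called both fringes.

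Between stromal progenitors and osteoprogenitors none of these genes was called, 0 of 30 tested in healthy and 0 of 31 in myeloma-bearing mice by limma, with 4 and 3 at an unadjusted p below 0.05. Over the tested genes of the lists the median log2 difference was -0.32 for healthy endothelial cells minus stromal progenitors (-0.21 over all genes) and 0.28 for healthy endothelial cells minus osteoprogenitors (-0.22). In myeloma-bearing mice it was 0.17 (-0.11) and 0.24 (-0.09) in the same order.

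Most members were low in myeloma cells, and Hes1 and Hey1 were their highest. Notch1 had 1.56, 0.0299, 0.316, 0.203 and 0.718 RPKM in bone-lining libraries D, E, G, I and J and 2.23, 0.897, 0.982, 2.36 and 1.3 RPKM in the central marrow libraries of the same letters. The lowest marrow value lay above 4 of the 5 bone-lining values. Notch2 had 3.9 RPKM in bone-lining library G and at most 0.79 RPKM in the other 9, and Notch3 was without reads in 9 of 10 libraries. Dll1 had at most 2 reads, Dll4 at most 2 outside bone-lining library G (32 reads), and Jag1 exceeded 1 RPKM only in marrow library D (1.23 RPKM). Hes1 had 11, 15.1, 30.7, 35.9 and 9.54 RPKM in the bone lining and 20, 12.1, 7.28, 21 and 21.3 RPKM in the marrow. Hey1 was as high as in many niche libraries, at 2.16, 6.27, 6.52, 4.93 and 8.08 RPKM in the bone lining and 8.33, 33.3, 0, 6.04 and 16.1 RPKM in the marrow.

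Between the sites 0 of the 3 members tested were called, beside 0.203% of 8857 genes, none had an unadjusted p below 0.05, and voom called none. Notch1 was -0.74 in the bone lining relative to the marrow (95% interval -1.59 to 0.11, unadjusted p = 0.0827, adjusted p = 0.857). Hes1 was 0.22 (95% interval -0.67 to 1.11) and Hey1 -0.41 (95% interval -1.91 to 1.09), and the sign of Hey1 turned with a pseudocount of 0.1 and with voom. The other 7 members were too low to be tested.

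Bone-lining myeloma cells were also set against the niche cells of myeloma-bearing mice. Against endothelial cells 6 of 7 members tested were called lower, beside 41.5% of 9207 genes called. They were Notch1 (-3.69, SE 0.52), Notch4 (-3.63, SE 0.56), Dll1 (-3.72, SE 0.75), Dll4 (-4.01, SE 0.71), Jag1 (-4.58, SE 0.67) and Hes1 (-4.51, SE 0.46), with adjusted p from 8.03e-06 to 0.0021. Notch4, Dll1, Dll4 and Jag1 passed the filter only through endothelial cells, so that their difference was built into the testing. Hey1 was -1.53 (95% interval -3.05 to -0.02, adjusted p = 0.11). It was called with no trend, with quantile normalisation and without EC library E or G. Jag2 was called without the filter and in both fits of all 38 libraries, and Notch3 by voom on all 38. The median over all genes tested was 0.49 on the log2 scale.

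Against stromal progenitors 4 of 5 members tested were called lower, beside 42.4% of 9460 genes. They were Notch2 (-1.72, SE 0.60, adjusted p = 0.0375), Notch3 (-2.17, SE 0.61, adjusted p = 0.0124), Jag1 (-2.68, SE 0.66, adjusted p = 0.00598) and Hes1 (-3.65, SE 0.51, adjusted p = 8.02e-05). Notch3 and Jag1 passed the filter only through stromal progenitors, so that their difference was built into the testing. Notch3 had no read in the 5 bone-lining myeloma libraries, and against 3 reads per library there the stromal progenitor mean of 5.63 RPKM was at least 276-fold higher, and at least 162-fold without SP library I, a choice made after the values were seen. Without SP library D, E or J, 2 members were called, Notch2 and Hes1, because Jag1 and Notch3 then fell under the filter. Jag1 also fell under it without SP library G, and Notch3 without SP library I. Against osteoprogenitors only Hes1 (-3.46, SE 0.46, adjusted p = 7.73e-05) of the 2 members tested was called, beside 42.9% of 9316 genes. Hey1 did not separate myeloma cells from the mesenchyme, at 0.77 (95% interval -1.43 to 2.96) and 0.23 (95% interval -1.60 to 2.07).

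Other pathway genes went both ways. Of 33 tested against endothelial cells 9 were called, 3 higher and 6 lower in myeloma cells, led by Egfl7 (-5.03, SE 0.43), Nrarp (-4.01, SE 0.51), Fbxw7, which marks the Notch intracellular domain for degradation (3.03, SE 0.65), and Numb (-2.88, SE 0.54). Against stromal progenitors 11 of 32 were called, 9 higher and 2 lower, led by Rbpj (-4.23, SE 0.55), Mfng (3.07, SE 0.45), Hes6, a Hes gene that opposes Hes1 (adjusted p = 0.00602), and Egfl7 (2.30, SE 0.77). Against osteoprogenitors 9 of 31 were called, 6 higher and 3 lower, led by Egfl7 (3.50, SE 0.51), Mfng (3.09, SE 0.46), Hes6 (2.79, SE 0.70) and Dtx3, a Deltex gene (-2.69, SE 0.54). Of these calls, Nrarp against endothelial cells, Mfng and Mib1 against stromal progenitors and Egfl7 and Mfng against osteoprogenitors passed the filter only through the group where they were high, which fixed their direction. By group mean Rbpj was lowest in the bone-lining and marrow myeloma cells, at 0.758 ± 0.608 and 0.665 ± 0.414 RPKM (SD, n = 5 each). Healthy endothelial libraries L, M and O were as low or lower, at 0.0196, 0.213 and 0.00708 RPKM. The shares called, 27.3%, 34.4% and 29%, were below the 41.5%, 42.4% and 42.9% of all genes. Between the 2 sites limma called 0 of 31, and 1 had an unadjusted p below 0.05.

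To ask whether myeloma changes the pathway in the niche, each cell type was compared between arms. In endothelial cells 0 of 9 members tested were called, beside 0% of 7880 genes, of which 414 had an unadjusted p below 0.05. With all 38 libraries in the fit 150 genes were called, and 251 by voom. Jag1 was -1.30 (95% interval -3.18 to 0.57, unadjusted p = 0.162, adjusted p = 0.943) in myeloma-bearing relative to healthy mice, with medians of 91.1 and 31.9 RPKM in healthy and myeloma-bearing libraries. Jag2 was -1.28 (95% interval -3.39 to 0.83, adjusted p = 0.956), and only myeloma-bearing library I, at 5.44 RPKM, lay within the range of the healthy ones. In a fit of all 38 libraries Jag2 had an adjusted p of 0.0771 and was called, and over its alternatives the adjusted p ran from 0.0771 to 0.999. Dll1 was -0.95, Notch2 -0.98, Notch4 -0.65, Hey1 -0.26 and Dll4 0.62, all with intervals across 0. Hes1 was bounded most closely, at 0.10 (95% interval -0.74 to 0.94), and Notch1 was -0.04 (95% interval -1.88 to 1.80).

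In stromal progenitors 0 of 5 members tested were called, beside 0% of 8747 genes, of which 437 had an unadjusted p below 0.05. Notch3 was 1.58 (95% interval -0.14 to 3.30, unadjusted p = 0.069, adjusted p = 0.956), from a mean of 0.782 ± 1.35 to 5.63 ± 6.27 RPKM (SD, n = 5 each). The pericyte and smooth muscle marker sum had medians of 33.7 and 197 RPKM in the same healthy and myeloma-bearing libraries, and the endothelial marker sum medians of 8.99 and 165 RPKM, with ranges of 4.02 to 62.7 and 2.71 to 206 RPKM. Their part in the Notch3 difference was not tested. In myeloma-bearing libraries D, E, G, I and J the endothelial sum was 183, 20.3, 165, 2.71 and 206 RPKM. Hes1 was 0.73 (95% interval -0.19 to 1.65, adjusted p = 0.956), Notch1 0.27, Notch2 -0.35 and Jag1 -0.34. In osteoprogenitors 0 of 5 were called, beside 0.0115% of 8664 genes, of which 422 had an unadjusted p below 0.05. Hes1 was 0.39 (95% interval -0.46 to 1.25), Jag1 -0.67 (95% interval -2.48 to 1.14), Notch1 0.25, Hey1 0.23 and Notch2 -0.02. No member separated the arms without overlap in any cell type, none had an unadjusted p below 0.05, and voom called none, also with all 38 libraries. On the libraries of each cell type alone voom called 4, 0 and 0 genes in all. None of the other pathway genes was called, 0 of 32, 0 of 32 and 0 of 27 in the same order by limma, with 0, 2 and 1 of them at an unadjusted p below 0.05.

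**Figure D4:**
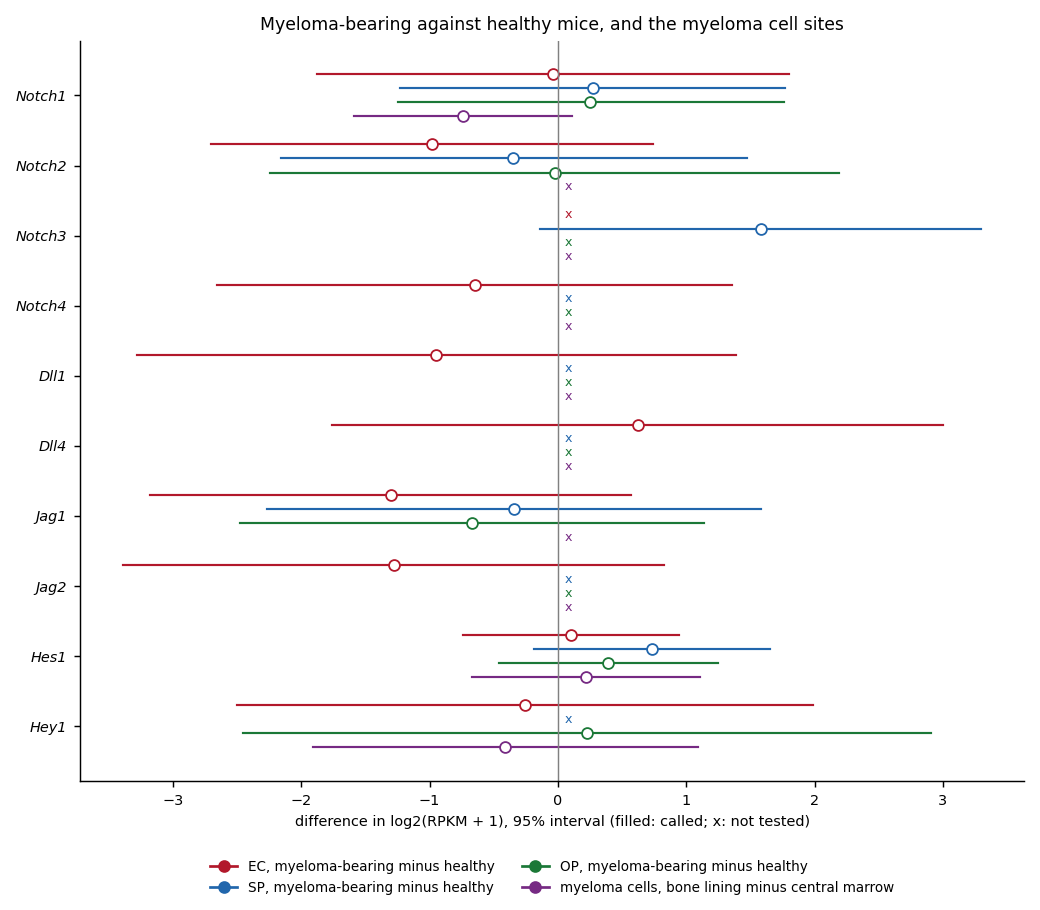
Points give the difference in log2(RPKM + 1) between myeloma-bearing and healthy mice in endothelial cells (EC), stromal progenitors (SP) and osteoprogenitors (OP), and between bone-lining and central marrow myeloma cells, with the limma 95% interval; open points were not called and x marks a gene too low to be tested. All intervals drawn include 0, and those of Hes1 are the narrowest of the niche cells.

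The responses of the cell types were also compared with each other. The endothelial response minus the mean of the mesenchymal responses called 0 of 10 members, beside 0% of 11713 genes, of which 708 had an unadjusted p below 0.05, and voom called 0 members and 5 genes. Notch3 (-2.10, 95% interval -3.73 to -0.47) and Jag2 (-1.34, 95% interval -2.51 to -0.16) had unadjusted p of 0.0131 and 0.0275 and adjusted p of 0.668 and 0.79. Jag2 had at most 0.314 RPKM in any mesenchymal library, so its value there rests on the endothelial libraries. The osteoprogenitor response minus the stromal progenitor response called 0 of 6, beside 0% of 10735 genes, of which 437 had an unadjusted p below 0.05, and voom called 0 members and 0 genes. Notch3 was -1.17 there (95% interval -3.18 to 0.85).

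**Figure D5:**
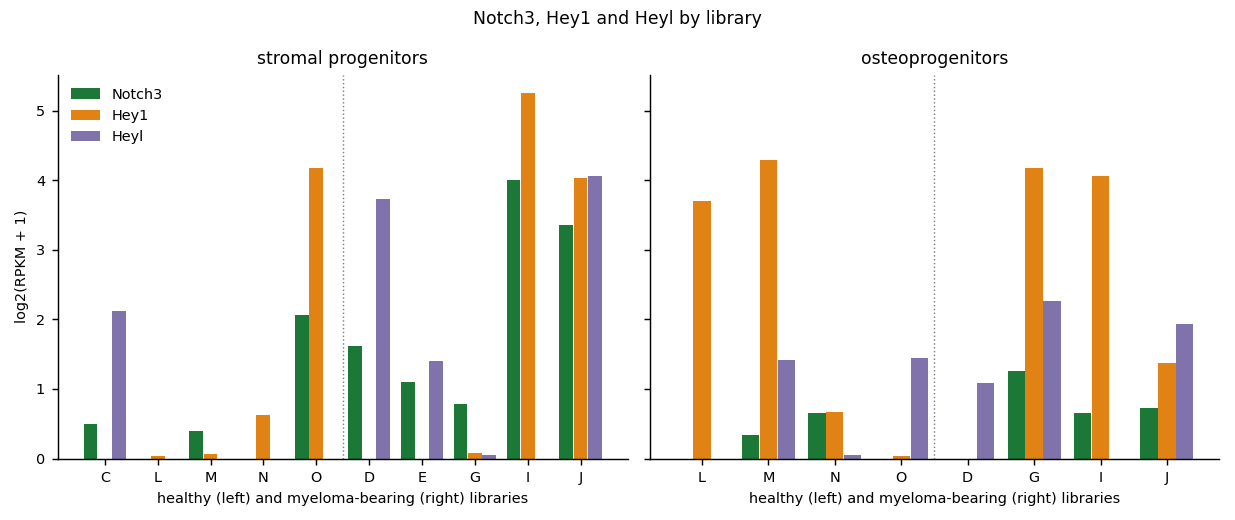
Bars give log2(RPKM + 1) of Notch3, Hey1 and Heyl in each stromal progenitor (left) and osteoprogenitor (right) library, with healthy libraries left and myeloma-bearing libraries right of the dotted line. The stromal progenitor libraries O, I and J are the 3 highest for Notch3 and for Hey1, and library D has Heyl without Hey1.

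Within the stromal progenitors Notch3 and Hey1 marked the same libraries. Healthy library O and myeloma-bearing libraries I and J, the 3 highest of 10 for Notch3, were also the 3 highest for Hey1. This was noticed after the values had been seen and was not tested. Heyl, a relative of Hey1 known from vascular smooth muscle, had 3.35, 0, 0, 0 and 0 RPKM in healthy and 12.3, 1.65, 0.0396, 0 and 15.6 RPKM in myeloma-bearing stromal progenitors, and shared only library J with them. Library I thus had 15 RPKM of Notch3 and 37.2 RPKM of Hey1 with no Heyl read, and its pericyte and smooth muscle marker sum was 154 RPKM, against 140.3 RPKM in O and 264 RPKM in J. In osteoprogenitors Hey1 was high in libraries L and M of healthy and G and I of myeloma-bearing mice, where Notch3 was 0, 0.269, 1.39 and 0.578 RPKM.

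As a description over all 38 libraries, which differ in cell type, the 2 genes most like each member by Pearson's r of log2(RPKM + 1) among 12682 genes were listed. They were Flt4 (r = 0.98) and Robo4 (0.97) for Notch4, Scarf1 (0.97) and C130074G19Rik (0.96) for Dll4, Csf2rb2 (0.95) and Kcne3 (0.93) for Dll1, Olfr1372-ps1 (0.92) and Mrc1 (0.90) for Jag2, and Stab2 (0.91) and Emcn (0.90) for Notch1. For Jag1 they were Tjp1 (0.88) and Col4a2 (0.87), and for Hes1 Klf2 (0.95) and Id1 (0.95). Flt4, Robo4, Stab2 and Emcn are known endothelial genes, and Flt4 and Stab2 are known from sinusoids. They were Nfix (0.76) and Pdgfrb (0.76) for Notch2 and Cacna1c (0.73) and Atp1b2 (0.71) for Notch3. For Hey1 they were Trim30a (0.75) and Cep95 (0.63).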

How the data were processed

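PolyA RNA of 100 sorted cells per library was sequenced for 38 libraries. The authors aligned reads to GRCm38 (mm10) with STAR 2.4.0, counted them per gene with featureCounts (Subread 1.4.5-p1) at its default settings, which ignore strand, and deposited RPKM values, computed with edgeR, for genes above 1 CPM in at least 4 samples.

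The RPKM values were used as deposited. Because they rise in steps of 1 read, read numbers were recovered for 13260 of 13260 genes, 9263 of which had a library at 1 read, and a floor of 3 reads per library was used for groups at 0. Recovered totals ran from 9735031 to 34883291 reads, and reads without molecular identifiers are not independent molecules, so the floor covers counting error only.

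Groups came from the labels. Differences were tested with limma 3.58.1 (R 4.3.3, empirical Bayes with trend) on log2(RPKM + 1), on the libraries compared, keeping genes that exceeded 1 RPKM in 4 or more. A fold change on this scale understates that of low genes. Calls required a Benjamini-Hochberg adjusted p below 0.1 over all genes tested and a log2 difference above 1 in size. Responses of cell types were compared by interaction terms. Alternatives were another pseudocount, no filter, all 38 libraries in the fit, no trend, quantile normalisation, voom on recovered reads, the replicate letter as a block, and each library left out in turn. The fits and the recovery were tested on simulated data.

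All members are named. Of the other pathway lists, the rule named the 4 called genes with the largest difference in each comparison; Rbpj and Adam10 in the comparison of healthy endothelial cells with stromal progenitors, Heyl, and the libraries highest in Notch3 and Hey1 were added after their values were seen. The members and lists were chosen with earlier results of these data known. Replicate letters are not stated to mark a single mouse across cell types. Same-letter libraries deviated from their group means with r from -0.0488 to 0.145, and in no comparison were all pairs above 0.1. The same letter was still the best match in 4 of 4 pairs between endothelial cells and osteoprogenitors of myeloma-bearing mice. It was the best match in 1 to 3 pairs of each other comparison. The letters were not taken as pairs in the main fits, but mice shared across cell types were not excluded.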

Additional observations from a re-analysis of the deposited data

Results flagged for a closer look

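In 10 of 52 gene and group pairs, 1 library stood apart from the rest of its group by Dixon's criterion. For normally distributed values chance marks about 1 in 20. The criterion was applied to RPKM without logarithms, and all 10 marked values were the highest of their group. The rate of 1 in 20 may therefore not hold here, and 10 of 52 is not read against it. Notch2 was at 2.72 RPKM in myeloma-bearing endothelial library E (next 0.649), at 22.5 RPKM in myeloma-bearing osteoprogenitor library G (next 3.7) and at 3.9 RPKM in bone-lining myeloma library G (next 0.418). Notch3 was at 9.68 RPKM in healthy endothelial library C (next 1.86) and at 3.17 RPKM in healthy stromal progenitor library O (next 0.415). Notch4 was at 3.1 RPKM in myeloma-bearing stromal progenitor library D (next 0.0817), and Jag1 at 9.01 RPKM in myeloma-bearing osteoprogenitor library G (next 0.98). Hes1 was at 721 RPKM in myeloma-bearing endothelial library D (next 417). Hey1 was at 80.8 RPKM in myeloma-bearing endothelial library I (next 23.2) and at 17.1 RPKM in healthy stromal progenitor library O (next 0.54). In osteoprogenitor library G both Notch2 and Jag1 stood apart, and in stromal progenitor library O both Notch3 and Hey1.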

How the results depend on the processing

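None of the 37 called member differences changed sign in any alternative run, but 19 of them were members that passed the filter through 1 group only, which fixed their sign. With all 38 libraries in the fit, 1 member was called between arms in endothelial cells, and 8 between endothelial cells and stromal progenitors of myeloma-bearing mice (8 also by voom with all 38). That voom fit called 3 members between bone-lining myeloma cells and osteoprogenitors. With 1 library left out, 4 to 6 members were called between endothelial cells and osteoprogenitors of healthy mice, 3 to 6 between those of myeloma-bearing mice, and 2 to 4 between bone-lining myeloma cells and stromal progenitors, where fewer genes passed the filter. The replicate letter as a block left 6 members called between endothelial cells and osteoprogenitors of healthy mice (Hes1 was lost) and 4 between endothelial cells and stromal progenitors of myeloma-bearing mice (Notch3 was lost), and it changed no other count of members. It called 195 genes between osteoprogenitors and stromal progenitors of myeloma-bearing mice, against 295. Healthy and myeloma-bearing libraries share no letters, so no block could be used there.

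Differences that changed sign were all uncalled. Between arms, Notch1 in endothelial cells became 0.04 with quantile normalisation, 0.10 with voom and 0.11 with voom on all 38 libraries, and Notch2 in osteoprogenitors 0.23 with quantile normalisation and 0.20 with voom. Between myeloma sites, Hey1 became 0.10 with a pseudocount of 0.1, 0.37 with voom and 0.61 with voom on all 38. With quantile normalisation, Notch2 became 0.20 in endothelial cells against osteoprogenitors of healthy mice. In osteoprogenitors against stromal progenitors it gave Notch1 -0.04 in healthy and -0.01 in myeloma-bearing mice and Hes1 0.11 in myeloma-bearing mice, and the block gave Hes1 -0.01 in healthy mice. Notch1 in the osteoprogenitor response minus the stromal progenitor response became 0.07 with a pseudocount of 0.1, 0.04 with quantile normalisation and 0.10 with the block. The cause was not tested.

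With 1 library left out, these ranges crossed 0. Between arms in endothelial cells they were Notch1 -0.27 to 0.24, Dll4 -0.19 to 1.30, Hes1 -0.09 to 0.23 and Hey1 -0.95 to 0.27, and in stromal progenitors Jag1 -0.82 to 0.13. In osteoprogenitors they were Notch1 -0.05 to 0.53, Notch2 -0.83 to 0.44 and Hey1 -0.48 to 1.03. Between myeloma sites they were Hes1 -0.03 to 0.43 and Hey1 -1.17 to 0.10. Between osteoprogenitors and stromal progenitors they were Hes1 -0.13 to 0.37 in healthy mice and, in myeloma-bearing mice, Notch1 -0.05 to 0.47, Notch2 -1.05 to 0.20, Hes1 -0.43 to 0.09 and Hey1 -0.06 to 1.38. Hey1 in bone-lining myeloma cells against osteoprogenitors ran from -0.57 to 0.82, and Dll4 in the endothelial minus the mesenchymal response from -0.21 to 1.29. In the osteoprogenitor minus the stromal progenitor response they were Notch1 -0.43 to 0.39, Notch2 -0.49 to 0.78, Jag1 -1.0 to 0.15 and Hey1 -1.46 to 0.19.

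Counts over all genes also moved with all 38 libraries in the fit (limma, then voom). Between arms they went from 0 to 150 and 251 in endothelial cells, from 0 to 28 and 82 in stromal progenitors and from 1 to 24 and 28 in osteoprogenitors, and for the differences between responses from 0 to 25 and 63 and from 0 to 16 and 16. Between cell types they went from 1465 to 2469 and 2888 and from 1361 to 2570 and 2883 (endothelial cells against stromal progenitors and against osteoprogenitors, healthy), from 1412 to 2187 and 2340 and from 1533 to 2292 and 2335 (myeloma-bearing), and between the mesenchymal types from 312 to 501 and 646 (healthy) and from 295 to 600 and 567 (myeloma-bearing). Between myeloma sites 18 genes became 1 without the filter and 8 with voom. With 1 library left out, the counts ran from 567 to 1372 and from 850 to 1470 (endothelial cells against osteoprogenitors, healthy and myeloma-bearing), from 181 to 343 and from 142 to 311 (osteoprogenitors against stromal progenitors), from 10 to 24 between myeloma sites and from 0 to 14 for the endothelial minus the mesenchymal response. Members at 0 to 3 reads in both groups could not be compared at this depth.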
